A study of Mus musculus with 8 samples.

Results

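The cytosolic ribosome is built from ribosomal RNA and a set of ribosomal proteins, with the RPL proteins in the large subunit and the RPS proteins in the small subunit. The messenger RNAs of these proteins start with a run of pyrimidines (the TOP motif), through which the mTOR pathway is known to control their translation as a group. The heart and skeletal muscle also use RPL3L, a muscle form of RPL3 that takes the place of RPL3 in the large subunit of mature muscle ribosomes. The question here was how the messenger RNAs of this group stood in the left ventricle after a pressor infusion, and how Rpl3 stood against Rpl3l.

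The genes were chosen by name from the deposited table, as the rows whose symbol is Rpl or Rps with a number and at most 1 letter a, x or l, together with Rplp0, Rplp1, Rplp2 and Rpsa. This gave 83 of the 55679 genes, 51 of the large subunit (with the 3 acidic stalk proteins) and 32 of the small subunit. The rule used no measured value. All 83 identifiers were found in GENCODE M21 (mouse GRCm38), on 19 chromosomes. Among the 83, 7 carry a name of the "like" kind (Rpl3l, Rpl6l, Rpl10l, Rpl32l, Rpl39l, Rps4l and Rps27l), and of these Rps4l, Rpl6l and Rpl32l are annotated as processed pseudogenes. The values are FPKM, fragment numbers scaled to transcript length and to the size of the library, so that genes are compared per length.

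The libraries came from left ventricles of male wild-type C57BL/6J mice whose hearts had been flushed with saline. For 7 days an osmotic pump under the skin gave the 4 control mice saline and the 4 ANG II mice the pressor hormone angiotensin II, in a dose of 1500 ng/kg/min. The age of the mice and whether any were pooled were not given in the sources used here, so a p-value covers the spread between these libraries. The ventricle is a whole tissue of many cell types, and a gene's level in it joins how many cells express it with how much each cell holds.

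The depth recovered from the steps of the FPKM values was 14455654 to 16564828 fragments per library. Of the 83 genes, 82 passed the filter of a mean of 0.1 FPKM and were tested, and Rpl10l was at 0 in all 8 libraries. Other features of the libraries moved with the treatment, and their part in the results was not tested. The mitochondrially encoded messenger RNAs took 29.4% ± 0.594 of the summed FPKM in the control group and 22.8% ± 1.17 in the ANG II group (mean ± SD, n = 4 each). All 14 cardiomyocyte markers were present, and their summed level was 62723 to 63926 FPKM in the control libraries and 49339 to 51807 FPKM in the ANG II libraries, with 2 of 14 called lower (1.41% of all genes tested were), 7 past the adjusted p threshold downwards (4.91% of all) and 9 lower without overlap (5.06% of all). By contrast, 10 of 10 fibroblast markers (567 to 856 FPKM against 3568 to 4200 FPKM, summed), 10 of 10 macrophage markers (288 to 365 against 653 to 914), 11 of 12 proliferation markers (46.3 to 62.0 against 86.8 to 144) and 5 of 6 erythroid markers (96.8 to 487 against 581 to 2084) were called higher, where 14.0% of all genes tested were. Of 10 endothelial markers 2 were called higher, near that share (580 to 659 against 694 to 827). Of 10 skeletal muscle markers 5 were tested and 2 called higher, with summed levels that overlapped (352 to 747 against 569 to 1403), and Myf6 and Myh4 were at 0.

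Rpl3 and Rpl3l moved in opposite directions. Rpl3 encodes the large-subunit protein that most tissues use at this place in the ribosome, and Rpl3l encodes its muscle form. Rpl3 lies on the reverse strand at chr15:80077791-80091868 and Rpl3l on the forward strand at chr17:24727820-24736143 (GRCm38). Their coding sequences, of 1209 and 1221 bases in GENCODE M21, were aligned from end to end, and 891 of 1209 aligned bases (73.7%) were identical, with a longest identical run of 22 bases. The stretch of 90 bases in which they are most alike shows what separates reads of the pair even there, with the 16 bases that differ in capitals (coding positions 685 to 774 of both).
Rpl3: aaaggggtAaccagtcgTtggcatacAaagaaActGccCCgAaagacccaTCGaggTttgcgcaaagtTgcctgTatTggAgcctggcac
Rpl3l: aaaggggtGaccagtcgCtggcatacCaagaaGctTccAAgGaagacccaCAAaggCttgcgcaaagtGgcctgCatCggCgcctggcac

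The stretch of 90 bases in which they are least alike (coding positions 856 to 945 of both) differs at 34 bases, again in capitals.
Rpl3: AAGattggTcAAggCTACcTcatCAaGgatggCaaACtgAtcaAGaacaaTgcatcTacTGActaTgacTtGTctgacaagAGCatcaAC
Rpl3l: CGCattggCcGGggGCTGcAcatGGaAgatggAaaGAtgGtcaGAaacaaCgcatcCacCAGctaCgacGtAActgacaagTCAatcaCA

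No stretch of 50 bases was common to transcripts of both genes, and Rpl3l shared none with any other annotated gene. Rpl3 shared 35.03% of its 50-base stretches with other genes, most of them (32.1% of all its stretches) with the pseudogene Rpl3-ps1, and how the authors treated reads that fit several places was not given in the sources used here.

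In the control libraries 1 to 4, Rpl3 was at 105, 118, 81.55 and 96.2 FPKM, and in the ANG II libraries 1 to 4 at 226, 184, 225 and 178 FPKM. Every ANG II library lay above every control library. The group means were 100.1 ± 15.2 FPKM and 203 ± 26.0 FPKM (SD, n = 4 each). The log2 fold change was 1.02 (SE 0.12, adjusted p = 0.000199, limma), the largest rise among the tested ribosomal protein genes. Rpl3l was at 208, 190.0, 208 and 189.9 FPKM in the control libraries and at 99.5, 109, 127 and 124 FPKM in the ANG II libraries. Here every ANG II library lay below every control library, with means of 199 ± 10.4 and 115 ± 13.02 FPKM and a log2 fold change of -0.79 (SE 0.08, adjusted p = 8.98e-05, limma). These values rest on 1490 to 1896 control and 3134 to 3786 ANG II fragments for Rpl3 and on 2781 to 3456 and 1512 to 1990 fragments for Rpl3l.

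**Figure D1:**
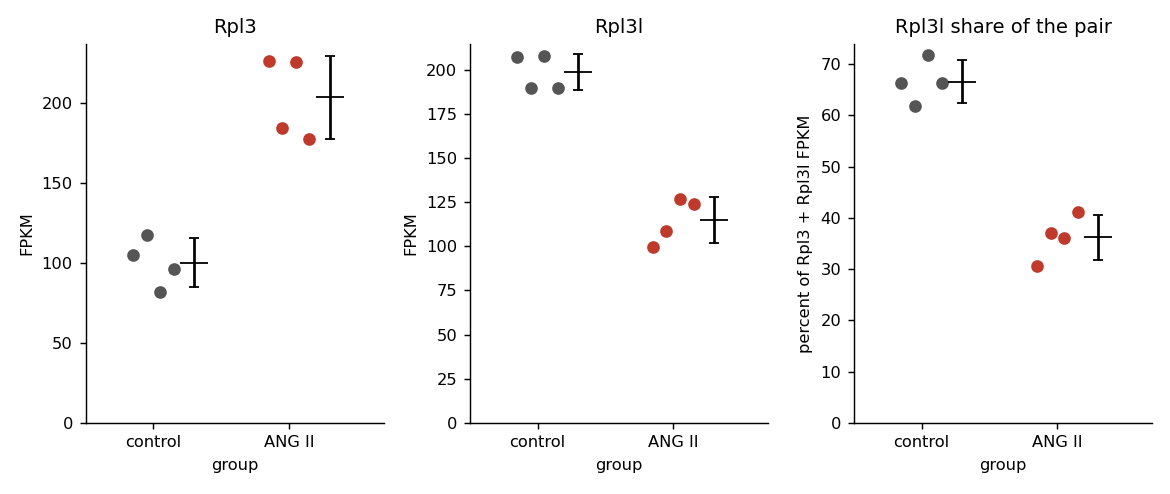
Level of Rpl3 and Rpl3l (FPKM) and the share of Rpl3l in the sum of both (percent), 1 point per library, with the group mean and SD beside the points. The ANG II libraries sit above the controls for Rpl3 and below them for Rpl3l, and the Rpl3l share falls from a mean of 66.6% to 36.2%.

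Rpl3l made up 66.4%, 61.7%, 71.9% and 66.4% of the summed FPKM of the pair in the control libraries and 30.5%, 37.1%, 36.0% and 41.1% in the ANG II libraries. The gene with the larger level was Rpl3l in all 4 control libraries and Rpl3 in all 4 ANG II libraries. The log2 ratio of Rpl3l to Rpl3 was 0.99 ± 0.27 in the control group and -0.82 ± 0.27 in the ANG II group, a difference of -1.81 (exact two-sided permutation p = 0.0286, the smallest that 4 against 4 allows). Over the 6 paralog pairs tested, the adjusted exact p was 0.0571. When the fragments were divided by the length of the main transcript of each gene, the Rpl3l share was 64.0% ± 4.28 and 33.6% ± 4.22. The sum of both genes was 299 ± 13.1 FPKM in the control group and 318 ± 26.6 FPKM in the ANG II group, and the groups overlapped (exact permutation p = 0.286).

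Because Rpl3l is a muscle gene and the cardiomyocyte markers also stood lower, Rpl3l was set against the median of those markers within each library. Its log2 fold change was then -0.32 (SE 0.06, adjusted p = 0.000635, limma), past the adjusted threshold but not past the fold threshold of 0.5, and that of Rpl3 was 1.49. The neighbours of Rpl3l on chromosome 17 gave other values. Msrb1, 499 bases downstream, had a log2 fold change of 0.08 (adjusted p = 0.569) and Ndufb10, 3342 bases upstream, one of -0.14 (adjusted p = 0.144). Rps2, itself a ribosomal protein gene at chr17:24718116-24721929, 5891 bases upstream, is described further on.

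The 120 bases before the RefSeq start of Rpl3l (chr17:24727706-24727825, forward strand, GRCm38.p6) are shown because the gene is the one member called lower, with its E-box CAGCTG (the same on both strands, a motif that muscle regulators are known to bind) in capitals.
Rpl3l: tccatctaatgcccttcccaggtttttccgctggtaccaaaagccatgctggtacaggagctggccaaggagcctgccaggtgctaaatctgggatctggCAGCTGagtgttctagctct

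Within 250 bases before the start, CAGCTG was found in 2 of the 56 ribosomal protein genes outside the "like" names that had an entry in the RefSeq table (3.57%) and in 12.8% of 27025 genes. The M-CAT element CATTCC, searched on both strands, was not found in that window of Rpl3l, and it was present in 4 of the 56 (7.14%) and in 12.6% of all genes. A match in this window is a matter of letters only.

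Most of the other ribosomal protein genes stood higher in the ANG II group by a smaller amount. A gene was called where the adjusted p was under 0.05 and the log2 fold change on log2(FPKM + 1) was beyond 0.5 in size. By this rule 26 of the 82 tested genes (31.7%) were called higher, against 14.0% of all 19364 genes tested, and Rpl3l alone (1.22%) was called lower, against 1.41% of all genes. By the adjusted p without the fold threshold, 67 (81.7%) were higher, against 28.4% of all genes, and 1 was lower, against 4.91%. Without overlap between the 4 control and the 4 ANG II libraries, 64 (78.0%) were higher, against 28.7% of all genes, and 1 was lower, against 5.06%. The median log2 fold change was 0.42 for the ribosomal protein genes and 0.15 for all genes tested, a distance of 0.27. Set within each library against the median level of all genes tested, the median level of the 75 ribosomal protein genes that averaged 10 FPKM or more was 5.05 to 5.22 (log2) above it in the control libraries and 5.12 to 5.54 in the ANG II libraries. On this scale the group means differed by 0.10 and the groups overlapped, and ANG II 3 was the only ANG II library above all controls.

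Scaling the libraries in another way changed the number of calls and left the median above 0. With median-of-ratios scaling, which brought the median of all genes to 0.00, the median of the ribosomal protein genes was 0.20. Of the 82 tested, 4 were called higher (Rpl3, Rpl36a, Rpl39 and Rpl41) and 1 lower. The 4 are a smaller share than the 8.62% of all genes called higher in that run. The adjusted threshold was passed upwards by 27 in place of 67. Calls over all genes went from 2708 higher and 273 lower to 1670 higher and 804 lower. With quantile normalization 9 were called higher, against 7.30% of all genes, and 1 lower. The adjusted threshold was passed upwards by 48, and over all genes 1413 were called higher and 986 lower. With a common total that left out mitochondrially encoded and the top 10 genes, 11 were called higher, against 10.2% of all genes. In that run 41 passed the adjusted threshold upwards. Rpl3, Rpl36a, Rpl39 and Rpl41 were called higher in all 19 refits with another scaling, filter, model or left-out library. With ANG II 3 left out, 14 were called higher, all of them among the 26, against 13.8% of all genes.

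**Figure D2:**
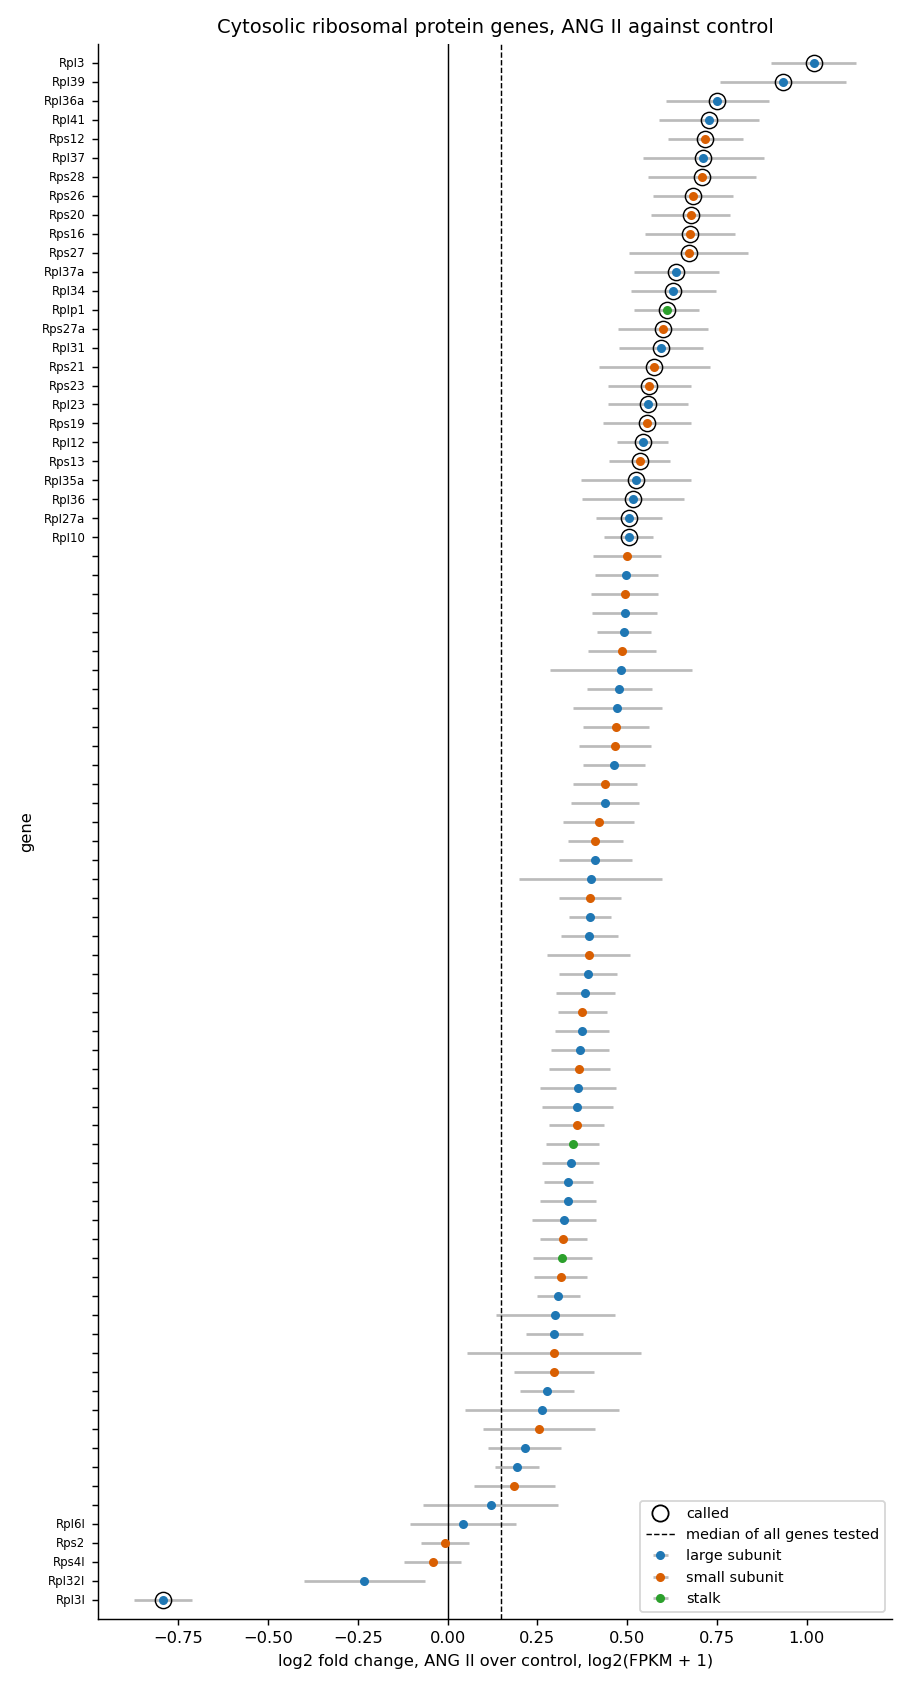
Log2 fold change of each of the 82 tested genes, ANG II over control on log2(FPKM + 1), with its SE as a bar, coloured by subunit and ringed where called, with the called genes and the 5 lowest named. Nearly all points lie to the right of the dashed line at the median of all genes (0.15), with Rpl3 at the top (1.02) and Rpl3l alone at the bottom (-0.79).

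As a share of all FPKM, the 83 genes took 2.10%, 2.08%, 1.82% and 1.87% in the control libraries and 2.71%, 2.38%, 2.96% and 2.55% in the ANG II libraries. The groups did not overlap, with means of 1.97% ± 0.141 and 2.65% ± 0.249. Since the share of mitochondrially encoded messenger RNA fell, the same was computed over nuclear-encoded genes, where the means were 2.78% ± 0.193 and 3.44% ± 0.371 and the groups again did not overlap. Of the recovered fragments, which are not divided by length, the ribosomal protein genes took 1.06% ± 0.0750 and 1.40% ± 0.144. The 298 rows named as pseudogenes of these genes summed to 84.3 ± 12.2 FPKM in the control group and 103.3 ± 4.21 FPKM in the ANG II group.

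**Figure D3:**
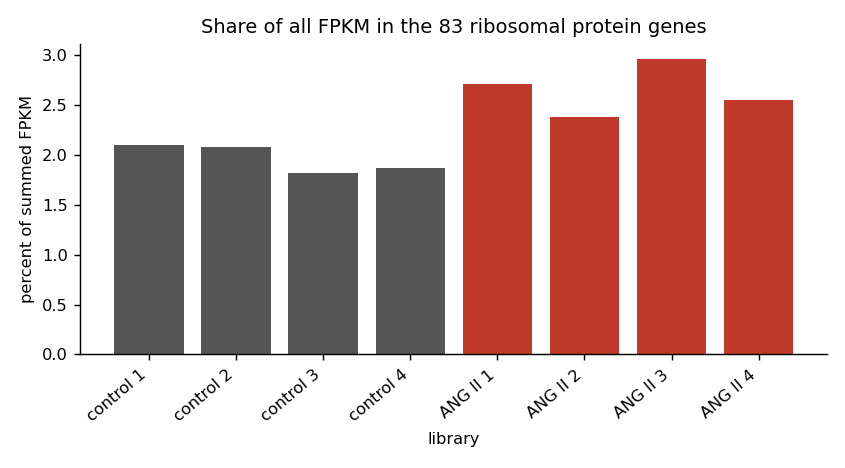
Percent of the summed FPKM of each library that fell on the 83 ribosomal protein genes, as bars from 0, with control libraries in grey and ANG II libraries in red. The control bars reach 1.82% to 2.10% and the ANG II bars 2.38% to 2.96%, with ANG II 3 highest.

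In the large subunit, 15 of 50 tested genes were called higher and 1 lower (14.0% and 1.41% of all genes), and the median log2 fold change was 0.40. The 15 became 4 with median-of-ratios scaling, 6 with quantile normalization, 5 with the common total without top genes, 9 without ANG II 3 and 23 without ANG II 2. In the same runs 8.62%, 7.30%, 10.2%, 13.8% and 14.1% of all genes were called higher. After Rpl3, the largest rise was that of Rpl39, a very small protein near the exit of the peptide tunnel. It was at 37.4, 38.3, 31.0 and 26.5 FPKM in the control libraries and at 64.5, 51.6, 90.9 and 54.8 FPKM in the ANG II libraries (log2 fold change 0.93, SE 0.18, adjusted p = 0.00278). The groups were apart, and the highest value was that of ANG II 3. Rpl36a was at 55.2 to 75.3 FPKM and 90.2 to 139 FPKM (log2 fold change 0.75), and Rpl41, which encodes the smallest of the ribosomal proteins, was at 100.4 to 131 FPKM and 163 to 253 FPKM (log2 fold change 0.73). These pairs of groups did not overlap either.

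The other large-subunit genes called higher were Rpl37, Rpl37a, Rpl34, Rpl31, Rpl23, Rpl12, Rpl35a, Rpl36, Rpl27a and Rpl10, with log2 fold changes from 0.50 to 0.71, and the stalk gene Rplp1. RPL10 is the protein that joins the large subunit late in its assembly, and its gene was at 308 ± 25.9 and 437 ± 23.0 FPKM (log2 fold change 0.50, adjusted p = 0.000427), just past the fold threshold. Just below that threshold stood Rpl10a at 0.498, which passed the adjusted threshold and was not called.

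Rpl5 and Rpl11, whose proteins bind 5S ribosomal RNA and can hold back MDM2 outside the ribosome, passed the adjusted threshold with small rises. Rpl5 went from 201 ± 7.39 to 245 ± 26.7 FPKM (log2 fold change 0.28, adjusted p = 0.0169) and Rpl11 from 225 ± 15.3 to 294 ± 31.6 FPKM (log2 fold change 0.38, adjusted p = 0.0053). Rpl22, which also binds RNA outside the ribosome, had a log2 fold change of 0.48 (adjusted p = 0.0029). Rpl38, known for its role in the translation of homeobox messenger RNAs, had nearly the same log2 fold change of 0.48 with a wider spread. It was at 45.6 to 65.9 FPKM in the control group and at 65.8, 55.0, 113 and 75.5 FPKM in the ANG II libraries, the groups overlapped, and the adjusted p was 0.0902. Rpl4, the most abundant of the large-subunit genes outside the stalk, went from 431 ± 17.3 to 568 ± 34.9 FPKM (log2 fold change 0.40, adjusted p = 0.000688).

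The stalk proteins recruit translation factors to the ribosome. Rplp0, the most abundant of the ribosomal protein genes chosen here (609.4 to 718 FPKM among controls and 789 to 904 FPKM under ANG II), had a log2 fold change of 0.35 (SE 0.07, adjusted p = 0.00492). Rplp2 had one of 0.32 (adjusted p = 0.0142). Rplp1 was called, with 344 ± 36.1 and 525 ± 50.9 FPKM and a log2 fold change of 0.61 (adjusted p = 0.000699). None of the 3 overlapped between the groups.

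In the small subunit, 11 of 32 genes were called higher and 0 lower (14.0% and 1.41% of all genes), and the median log2 fold change was 0.45. The 11 became 0 with median-of-ratios scaling, 3 with quantile normalization, 6 with the common total without top genes and 5 without ANG II 3. Over all genes the shares called higher in these runs were 8.62%, 7.30%, 10.2% and 13.8%. Rps12 had the largest log2 fold change in this subunit, with 169, 164, 144 and 143 FPKM in the control libraries and 256, 233, 315 and 225 FPKM in the ANG II libraries (log2 fold change 0.72, SE 0.10, adjusted p = 0.000682), and the groups were apart. The other 10 were Rps28, Rps26, Rps20, Rps16, Rps27, Rps27a, Rps21, Rps23, Rps19 and Rps13, from 0.53 to 0.71. Of these, Rps21 was called although its groups overlapped. Rps27a encodes a fusion of ubiquitin with a ribosomal protein, and its log2 fold change was 0.60 (115 ± 13.6 against 176 ± 31.5 FPKM). Rps19 and Rps26 are genes mutated in Diamond-Blackfan anaemia, and their log2 fold changes were 0.56 and 0.68.

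Rps6, whose protein is phosphorylated downstream of mTOR, passed the adjusted threshold without being called (221 ± 9.80 against 286 ± 35.7 FPKM, log2 fold change 0.37, adjusted p = 0.00815). So did Rps14, known from the 5q- syndrome (259 ± 22.4 against 365 ± 44.7 FPKM, log2 fold change 0.49), and Rpsa, the laminin receptor protein of the small subunit (360.0 ± 13.8 against 451 ± 38.5 FPKM, log2 fold change 0.32). Rps2 stood apart among the abundant genes. It was second in level after Rplp0, at 663, 715, 645 and 623 FPKM in the control libraries and 672, 625, 721 and 618 FPKM in the ANG II libraries. The groups overlapped almost wholly, and the log2 fold change was -0.01 (SE 0.07, adjusted p = 0.954). With median-of-ratios scaling it was -0.24 (adjusted p = 0.0275), lower in the ANG II group past the adjusted threshold. Rps2 shared 43.0% of its 50-base stretches with other genes, Rps2-ps10 above all.

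To ask which genes moved apart from the rest of the group, each value was set against the median, in the same library, of the 75 ribosomal protein genes that averaged 10 FPKM or more. On this scale Rpl3 (0.60, adjusted p = 0.00197) and Rpl39 (0.51, adjusted p = 0.00909) were called higher, which is 2.44% of the tested genes against 4.46% of all genes. Rpl3l (-1.22, adjusted p = 8.63e-06) and Rpl32l (-0.66, adjusted p = 0.024) were called lower, against 17.6% of all genes. Rpl32l is a pseudogene at 0.464 ± 0.303 and 0.240 ± 0.205 FPKM, and it was not called in 7 of 19 refits, among them the one with a pseudocount of 0.1. Rps2 passed the adjusted threshold at -0.43 (adjusted p = 0.012) and Rps4l at -0.46 (adjusted p = 0.0197), without reaching the fold threshold, which Rps4l did reach without ANG II 4 and after the trends on GC content and length were taken out. Upwards, Rpl36a (0.33, adjusted p = 0.0408), Rpl41 (0.31, adjusted p = 0.0454) and Rps12 (0.30, adjusted p = 0.0434) passed the adjusted threshold and not the fold threshold. Rpl39 was not called on this scale without control 4, ANG II 1 or ANG II 3, so that Rpl3 and Rpl3l were the pair called in all 19 refits.

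The size of the change went with the length of the coding sequence and with the level of the gene. Among the 72 genes of at least 10 FPKM outside the "like" names, the 9 with a coding sequence under 300 bases had a median log2 fold change of 0.67 and 7 were called higher. For the 25 genes of 300 to under 450 bases the median was 0.51 (13 called), for the 16 of 450 to under 600 bases it was 0.39 (3 called), and for the 22 longer genes it was 0.37 (3 called). Of all genes tested 14.0% were called higher, and the calls among the 22 longer genes were near that share. Over the 72 genes, Pearson's r between coding length and log2 fold change was -0.35 and Spearman's rho was -0.51, a description over genes that share the same 8 libraries. Against the mean FPKM, r was -0.42 and rho -0.38, and the parts of length and level were not told apart. Rpl3, with 1209 coding bases, lay outside this pattern.

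The pattern was weaker without library ANG II 3. This library was the highest ANG II library for 64 of the 75 genes, and ANG II 2 was the lowest for 64. Among the controls, control 1 was highest for 47 and control 3 lowest for 49. The excess of ANG II 3 over the mean of the other ANG II libraries had a median of 0.67 (log2) for coding sequences under 300 bases, 0.40 for 300 to under 450, 0.24 for 450 to under 600 and 0.17 for longer ones, with r of -0.63 and rho of -0.77 over the 72 genes. Without ANG II 3 the medians of the log2 fold change in the same 4 bins were 0.52, 0.39, 0.33 and 0.31, and r was -0.18 and rho -0.36 against length and -0.30 and -0.28 against the mean FPKM. The part of library preparation in this was not tested.

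**Figure D4:**
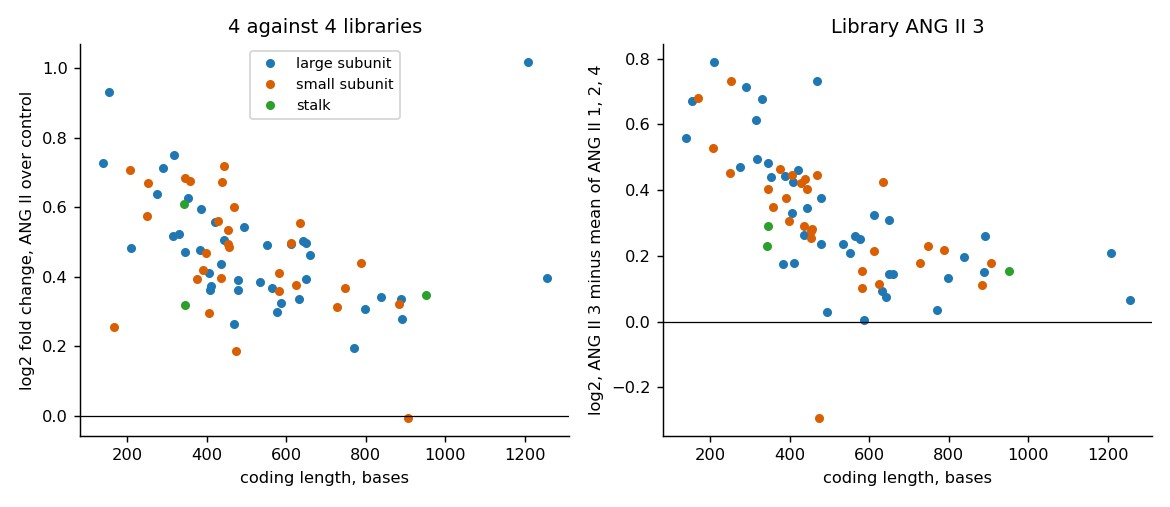
Coding length in bases against the log2 fold change of ANG II over control (left) and against the log2 difference between ANG II 3 and the mean of ANG II 1, 2 and 4 (right), 1 point per gene for 72 genes, coloured by subunit. Short coding sequences lie higher in both panels, and the point at the upper right of the left panel is Rpl3 at 1.02.

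TOP-like starts were looked for in the RefSeq promoter table, which held 61 of the 83 genes. A run of at least 8 pyrimidines (C or T) within 20 bases of the RefSeq start was found in 26 of 56 genes outside the "like" names (46.4%) and in 15.9% of 27025 genes in the table. The run could lie on either side of the start and did not have to begin there. A gene without one by this search may still carry a TOP motif. Windows from 15 bases before to 15 bases from the start are given for 4 of the genes with values above, to show a long and a short run side by side, with the longest run of C and T in capitals (GRCm38.p6, 5′ to 3′ on the gene's strand). They lie at chrX:37085208-37085237 (reverse), chr10:23787195-23787224 (reverse), chrX:134585639-134585668 (forward) and chr17:24727811-24727840 (forward).
Rpl39: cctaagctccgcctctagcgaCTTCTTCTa
Rps12: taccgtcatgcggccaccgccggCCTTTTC
Rpl36a: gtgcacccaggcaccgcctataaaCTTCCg
Rpl3l: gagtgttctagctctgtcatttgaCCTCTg

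Rpl39 carries a run of 8 and Rps12 one of 11 once the bases past this window are counted, while Rpl36a and Rpl3l reach 5. A long run did not go with a larger change here. The 23 genes of at least 10 FPKM with a run of 8 or more had a median log2 fold change of 0.41 (7 called higher), and the 29 with a shorter run one of 0.50 (14 called higher). Of all genes tested 14.0% were called higher.

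The paralogs were compared with their parents as log2 ratios in each library. Of 8 pairs listed, 6 had both genes at a mean of at least 0.1 FPKM, and over these 6 no adjusted exact p was under 0.05, with 0.0571 as the smallest. Rps4l against Rps4x, its X-linked parent, had a ratio that was lower by 0.48 on the log2 scale in the ANG II group without overlap (exact permutation p = 0.0286, adjusted 0.0571). Rps4l itself was at 23.1 ± 2.19 and 22.4 ± 1.73 FPKM (log2 fold change -0.04, and -0.26 with median-of-ratios scaling or quantile normalization, adjusted p = 0.0197 and 0.0226), while Rps4x was at 361 ± 33.7 and 491 ± 50.9 FPKM (log2 fold change 0.44). Rps27l, a p53 target, was at 48.8 ± 1.95 and 68.4 ± 11.8 FPKM (log2 fold change 0.47, adjusted p = 0.00561, limma), with ANG II 3 far above the other libraries at 86.0 FPKM. Its ratio to Rps27 overlapped between the groups (difference -0.20, adjusted exact p = 0.137). Rpl7l1 was at 36.8 ± 2.01 and 38.2 ± 3.82 FPKM and its ratio to Rpl7 overlapped (difference -0.30, adjusted exact p = 0.0857). Rpl22l1 was called higher on its own (2.43 ± 0.525 against 3.99 ± 0.349 FPKM, log2 fold change 0.55, adjusted p = 0.00771), and its ratio to Rpl22 differed by 0.07 (adjusted exact p = 0.743). Rpl39l was at 0 in 4 of the 8 libraries and at most 0.292 FPKM in the others. Its ratio to Rpl39 differed by -0.72 (adjusted exact p = 0.0571) and changed sign with a pseudocount of 0.1. Rpl6l, a processed pseudogene that shares 76.4% of its 50-base stretches with other genes, was at 0.385 ± 0.204 and 0.429 ± 0.231 FPKM (log2 fold change 0.04, adjusted p = 0.854). The pairs Rpl10l with Rpl10 and Rpl36al with Rpl36a were under the level for a test.

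Some core genes of the ribosome had values near 0. Rpl24 was at 0.399 ± 0.297 and 0.524 ± 0.346 FPKM, Rps10 at 0.869 ± 0.551 and 1.295 ± 0.677 FPKM and Rpl13a, known for its part in the interferon response, at 2.15 ± 0.706 and 3.12 ± 0.877 FPKM, beside a median of 165 FPKM over the 83 genes. These genes lie under other annotated genes. Of 11 genes with at least 20% of their exon bases under another gene, 6 had a mean under 20 FPKM (Rpl24, Rps10, Rpl13a, Rpl35, Rpl23a and Rpl30). Of the 65 others outside the "like" names, 0 did, and the lowest was at 37.3 FPKM. The overlapping genes were low as well, with Gm28037 (over Rpl24), RPS10-NUDT3 (over Rps10) and Gm45713 (over Rpl13a) at 0 in all 8 libraries. Whether reads that fit both genes were set aside in the counting was not tested. Of the 14 tested genes that did not pass the adjusted threshold, 8 had a mean under 20 FPKM. Rpl38, Rps2, Rps29 and Rps4l were among those with a higher mean.

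**Figure D5:**
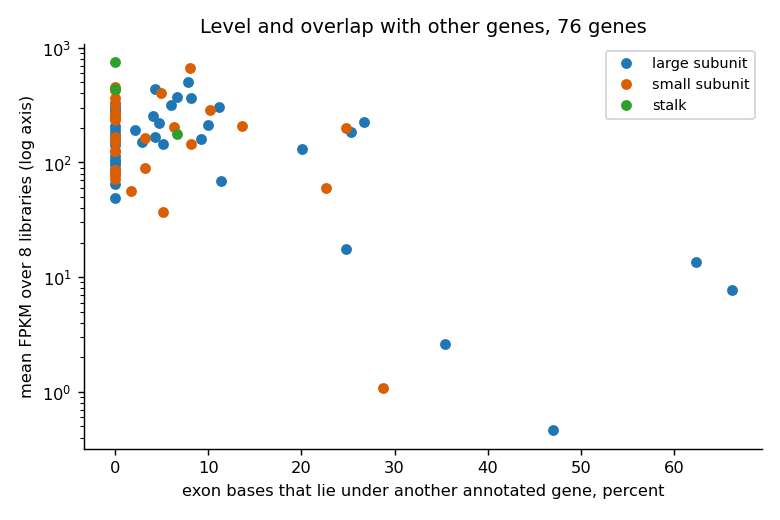
Percent of a gene's exon bases that lie under another annotated gene against its mean FPKM over 8 libraries (log axis), 1 point per gene for the 76 genes outside the "like" names. Below 20% overlap the points stay at 37.3 FPKM and above, and from 20% on 6 of 11 drop under 20 FPKM.

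Sharing of sequence is common in this family. Over 20% of the 50-base stretches were found in another gene for 48 of the 83, with a median of 23.7%. Among the 52 genes with under 30% shared and under 10% of exon bases under another gene, 51 were tested, 18 were called higher (35.3%, against 14.0% of all genes) and 1 lower, and the median log2 fold change was 0.47.

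Other genes of the pathway were taken from fixed lists. Of the ribosomal protein genes and pseudogenes that the naming rule does not reach, 8 were tested and 2 were called higher (25.0%, against 14.0% of all genes), Rpl22l1 and Fau, whose protein is cut into a ubiquitin-like part and RPS30 (135 ± 6.74 against 205 ± 13.2 FPKM, log2 fold change 0.60, adjusted p = 8.01e-05). Rack1, the signalling scaffold of the small subunit, had a log2 fold change of 0.38 (adjusted p = 0.0025) and Rps3a1 one of 0.26 (adjusted p = 0.0448). Rps3a2 and Rps3a3, annotated as processed pseudogenes, and Rpl7l1 did not pass the adjusted threshold, with log2 fold changes of 0.11, -0.19 and 0.05.

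Among 17 other genes of the translation machinery known for TOP messenger RNAs, 3 were called higher and 14 passed the adjusted threshold upwards, with a median of 0.39, which is 17.6% and 82.4% of the list against 14.0% and 28.4% of all genes, whose median was 0.15. The elongation factor Eef1a1 was at 684 to 865 FPKM in the control group and at 1758 to 2174 FPKM in the ANG II group (log2 fold change 1.27, adjusted p = 1.83e-05), a larger log2 fold change than that of any ribosomal protein gene. The poly(A)-binding protein gene Pabpc1 (104 ± 6.74 against 206 ± 15.7 FPKM, log2 fold change 0.97) and Npm1, a nucleolar chaperone (110.1 ± 2.73 against 162 ± 14.9 FPKM, log2 fold change 0.55), were the others called.

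Of 73 ribosome biogenesis genes, 6 were called higher, 22 passed the adjusted threshold upwards and none downwards, and the median was 0.12, beside 14.0% called higher, 28.4% passed upwards and a median of 0.15 for all genes. The list's shares, 8.22% and 30.1%, were below and near these. The largest changes were in Fbl, the methyltransferase fibrillarin, in Tsr1 and in Ebna1bp2. Fbl was at 1.80, 1.43, 17.7 and 2.38 FPKM in the control libraries and at 21.7 to 26.7 FPKM in the ANG II libraries (log2 fold change 2.49, SE 0.55, adjusted p = 0.00625). Control 3 was far above the other controls, as it was for Tsr1 (10.5 against 2.61 to 2.95 FPKM) and Ebna1bp2 (23.3 against 6.67 to 9.64 FPKM). Without control 3 the log2 fold changes of Fbl, Tsr1 and Ebna1bp2 were 3.17, 1.76 and 1.46 in place of 2.49, 1.36 and 1.10. Control 3 was not above the other controls in the summed ribosomal protein genes, where it was lowest.

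Of 16 genes of mTOR and MYC control, 3 were called higher with a median of 0.15 (all genes: 14.0% called higher, median 0.15). They were the transcription factor gene Myc (2.25 ± 0.171 against 4.87 ± 0.875 FPKM, log2 fold change 0.84, adjusted p = 0.000585), Eif4ebp1, an mTOR substrate that holds back cap-dependent translation (25.7 ± 3.01 against 45.4 ± 1.58 FPKM, log2 fold change 0.80), and Pdcd4, an inhibitor of the helicase eIF4A (9.64 ± 1.37 against 14.4 ± 1.09 FPKM, log2 fold change 0.53). The mitochondrial ribosome, which is built from other proteins, is given for comparison. Of its 77 tested genes, 1 was called higher (Mrpl52, log2 fold change 0.51, adjusted p = 0.0151, and 0.48 without control 3) and 0 lower, 4 passed the adjusted threshold upwards and 19 downwards, and the median was -0.08. Over all genes 14.0% were called higher, 28.4% passed upwards and 4.91% downwards, and the median was 0.15.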

How the data were processed

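Left ventricle messenger RNA of 4 control and 4 ANG II mice was sequenced by the authors on an Illumina platform from oligo(dT)-enriched, paired-end libraries. The study's methods give a larger number of replicates per group, and the extraction label speaks of "CRC cells" where the tissue label gives left ventricle. The 8 libraries here are all that were analysed. The authors deposited 1 table of FPKM values with a column per library. Per the labels, Bowtie2, HISAT and RSEM were used. Their versions and roles, the genome build, annotation, strand setting and treatment of reads that fit several genes were not given in the sources used here.

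Samples were grouped by their treatment labels. Genes that averaged 0.1 FPKM or more over 8 libraries (19364) were tested on log2(FPKM + 1) with limma 3.58.1 in R 4.3.3 (lmFit, eBayes with a trend, two-sided), with Benjamini-Hochberg adjustment over all of them. The pseudocount understates changes of low genes. Single ratios were tested by exact two-sided permutation over 70 allocations (scipy 1.17.1). Of values under 60 fragments, 98.1% to 98.5% came out whole within 0.05 fragments once a library's step and the mean GENCODE M21 transcript length were applied, which gave the depths. These cover counting error only. On simulated counts with 200 of 19076 genes changed by 2-fold, 177 were called rightly and 1 unchanged gene was called (simulated dispersion 0.01). At 1.5-fold 48 were called rightly and at 1.3-fold 1 was, with 3 unchanged genes called in each. At 3-fold 195 were called rightly and 8 unchanged genes were called.

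The genes and lists were chosen with earlier results of these data known. Genes were named by a rule: every gene called, the 5 highest and 5 lowest log2 fold changes, the 3 most and 3 least abundant, the paralogs, the stalk, a list of well-known members, the ribosomal proteins outside the naming rule and up to 3 called genes of each other pathway list. Same-numbered control and ANG II libraries did not deviate together (correlations from -0.03 to 0.06), so no pairing was used. Some genes enter the counts and are not reported here by name.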

Additional observations from a re-analysis of the deposited data

Results flagged for a closer look

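A gap test (Dixon's test for a single outlying value) was run on 144 groups of 4 libraries over the measures and genes named above, and 8 groups held a library far from the other 3, where chance alone would give about 7.2. Of these gaps, 2 were in ANG II 3 over summary measures, with a gap of 0.895 of the group's range for the mitochondrially encoded share (24.6% against 22.1% to 22.4%) and of 0.935 for the median of the large subunit minus that of the small subunit (-0.03 against 0.06 to 0.06 on the log2 scale). ANG II 3 also stood out for Rps27l (86.0 against 61.6 to 63.3 FPKM, gap 0.929). Control 3 stood out for Fbl (17.7 against 1.43 to 2.38 FPKM, gap 0.941), for Tsr1 (10.5 against 2.61 to 2.95 FPKM, gap 0.956) and for Rpl39l (0.089 FPKM with the others at 0, gap 1). Control 1 was high for Rps13 (82.2 against 69.3 to 71.1 FPKM, gap 0.865) and control 4 was low for Rps3a2 (0.991 against 2.18 to 2.29 FPKM, gap 0.920). The causes were not tested.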

How the results depend on the processing

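Rpl3 stayed called higher (log2 fold change 0.79 to 1.49) and Rpl3l lower in direction (-1.02 to -0.32) under every alternative run. Rpl3l was no longer called at a log2 threshold of 1 (-0.79) or relative to the cardiomyocyte markers (-0.32), an alternative chosen after seeing the data. The count of genes called higher, 26, became 4 with median-of-ratios scaling (median 0.20 in place of 0.42), 9 with quantile normalization, 11 with a common total without mitochondrially encoded and top 10 genes, 67 without a fold threshold and 1 (with 0 lower) at a log2 threshold of 1. For the large subunit (15) these counts were 4, 6, 5, 41 and 1, and for the small subunit (11) they were 0, 3, 6, 26 and 0. Of all genes, 8.62% were called higher with median-of-ratios scaling, 7.30% with quantile normalization and 10.2% with the common total. This share was 13.8% without ANG II 3 and 14.1% without ANG II 2. Relative to the group median, calls went from 2 higher and 2 lower to 5 and 4 without a fold threshold and 0 and 1 at a threshold of 1, and lower calls were 1 with a pseudocount of 0.1, a filter of 1 FPKM, median-of-ratios scaling, the common total without top genes, or voom. Leaving out 1 library gave 14 (without ANG II 3) to 39 (without ANG II 2) called higher, 9 to 23 for the large and 5 to 16 for the small subunit, 1 to 2 higher and 1 to 3 lower relative to the group median, and a log2 ratio of Rpl3l to Rpl3 of -1.92 to -1.69, for which the smallest exact permutation p is 0.0571. The ratio of Rpl22l1 to Rpl22 changed sign without control 1 (-0.056) and ranged from -0.056 to 0.158 over the libraries left out, and that of Rpl39l to Rpl39 did so with a pseudocount of 0.1 (0.18).

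Small values near 0 changed sign without reaching a call under the settings named: Rpl6l (-0.018 with median-of-ratios, -0.074 with quantile normalization and -0.040 to 0.145 over the libraries left out), Rps2 (0.0090 with a common FPKM total, -0.051 to 0.032 over the libraries left out) and Rps4l (-0.089 to 0.012 over the libraries left out). Over all alternatives the lowest values were -0.24 for Rps2 (median-of-ratios) and -0.26 for Rps4l (quantile normalization), both past the adjusted threshold. With replicate number as a replicate block, 26 genes were called higher and 1 lower as before, and the paired log2 ratio was -1.81 (exact sign-flip p = 0.125, the smallest 4 pairs allow). The labels give no sign that numbers pair the mice. Voom on the recovered fragments, added after seeing the data, called 27 higher and 3598 higher and 389 lower over all genes. The causes were not tested. Few or no fragments per library fell on Rpl10l, Rpl39l, Rpl24, Rpl6l and Rpl32l, which limits the precision of their values.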
